A study of Mus musculus with 2 samples.

Results

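Kidney tubular injury is read in tissue, urine and plasma through a small set of genes. The 10 described here were Havcr1, Lcn2, Spp1, Clu, Vcam1, Cd44, Cp, Dcdc2a, Cst3 and Plin2. They were taken by gene symbol from a deposited count table of 45777 genes, and all 10 had reads in both libraries. All 10 also passed the expression limit of 1 CPM (read counts relative to library size, scaled between libraries by the trimmed mean of M-values, TMM) in at least 1 library, as did 15129 genes in all. The set was named with earlier results of these data known.

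The RNA came from whole mouse kidneys, as 1 RNA-seq library of control mice and 1 of mice carrying a conditional knockout (CKO) of Inmt specific to the proximal tubule. Both groups ate standard chow and received no treatment. The genotype of the controls, the Cre driver, and the sex, age and number of animals behind each library are not given in the sources used here. The comparison asks how the kidney transcriptome differs when Inmt, an amine N-methyltransferase gene, is deleted in that segment.

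The libraries held 33618076 (control) and 38136616 (CKO) reads counted on genes. With 1 library per group there is no spread between animals and no test. Intervals below are 95% counting intervals, exact Poisson for a level and exact Clopper-Pearson for a ratio, and they cover counting error only. The targeted gene Inmt had 17678 control reads and 5283 CKO reads, which is 4.73-fold lower after scaling. Nephron markers were abundant in both libraries, among them the phosphate cotransporter gene Slc34a1 at 6410 and 3370 CPM and the thick ascending limb gene Umod at 1386 and 2170 CPM. In whole kidney RNA, more or fewer cells of a type and more or less RNA per cell cannot be told apart.

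As background, tubule cells that lose their brush border or die are replaced by surviving neighbours that dedifferentiate and divide. Such cells switch on surface receptors such as kidney injury molecule 1 (Havcr1) and secrete lipocalin-2 (Lcn2), osteopontin (Spp1) and clusterin (Clu), which reach the urine. Cells that do not complete repair keep Vcam1 and Dcdc2a on. Cystatin C (Cst3) is used differently, because every nucleated cell releases it and its plasma level reads glomerular filtration.

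Of the 10 genes, 9 were higher by 2-fold or more in the CKO library and 0 were lower by 2-fold or more. Among all expressed genes, 10.3% were higher by 2-fold or more and 1.66% lower by 2-fold or more. Genes that passed the expression limit through the CKO library alone, as Lcn2 did, tend to be called higher by that rule. All 10 genes reached 10 CPM in 1 library or both, and among genes at that level 5.62% were higher by 2-fold or more. With a limit of 4-fold, 7 of the 10 were higher, where all expressed genes gave 1.92% and genes with 10 CPM or more gave 1.29%. With a limit of 8-fold, 6 of the 10 were higher, where all expressed genes gave 0.324%. These calls use the log2 ratio of CPM + 0.5, CKO over control, a scale on which ratios of low genes come out too small. The median log2 ratio was 3.30 for the 10 genes and 0.01 for all expressed genes. The lowest of the 10 was Cst3 at 0.53 and the highest Lcn2 at 5.17.

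**Figure D1:**
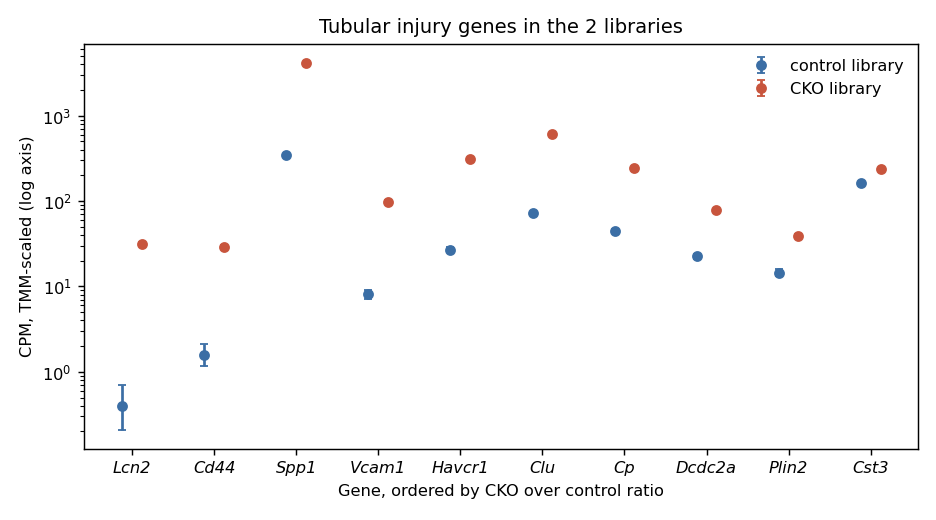
Level of each of the 10 genes in the control library (blue) and the CKO library (red), in TMM-scaled CPM on a log axis, with exact Poisson 95% intervals that are mostly smaller than the points. Every gene sits higher in the CKO library, with the widest gap for Lcn2 and the narrowest for Cst3.

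Sequence just upstream of annotated starts is shown for 4 genes whose printed stretch holds no annotated exon base. These were Spp1, Havcr1 and Cd44, which were among the 6 highest ratios, and Dcdc2a, the gene that held a STAT motif. The starts used for Havcr1 and Dcdc2a lie inside the gene spans given below, not at their outer ends. RefSeq promoter windows (GRCm38.p6, the assembly named by the mm10 build) reached from 250 bases before to 50 after each annotated start. They matched 8 of the 10 genes with 12 windows, and Clu and Vcam1 were the genes without a match. The lines give the 150 bases before 1 annotated start, 5′ to 3′ on the gene's strand, with motif matches in capitals.
Spp1, chr5:104434961-104435110 (+ strand): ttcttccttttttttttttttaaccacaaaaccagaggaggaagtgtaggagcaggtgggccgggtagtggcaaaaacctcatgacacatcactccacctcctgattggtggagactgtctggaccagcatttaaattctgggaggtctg
Havcr1, chr11:46750361-46750510 (+ strand): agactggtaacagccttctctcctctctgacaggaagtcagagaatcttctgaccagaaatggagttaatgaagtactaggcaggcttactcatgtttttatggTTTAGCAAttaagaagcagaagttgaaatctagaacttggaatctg
Cd44, chr2:102901666-102901815 (- strand): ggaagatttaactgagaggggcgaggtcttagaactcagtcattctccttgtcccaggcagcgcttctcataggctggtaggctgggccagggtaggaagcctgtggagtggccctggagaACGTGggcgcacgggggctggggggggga
Dcdc2a, chr13:25055854-25056003 (+ strand): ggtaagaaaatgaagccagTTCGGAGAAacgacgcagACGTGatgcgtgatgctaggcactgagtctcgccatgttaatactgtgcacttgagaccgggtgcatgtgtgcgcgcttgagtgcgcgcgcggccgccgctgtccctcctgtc

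In those lines the capitals mark a C/EBP match in Havcr1, a hypoxia response element (ACGTG) in Cd44, and a STAT match followed by ACGTG in Dcdc2a. Spp1 held no match in the stretch shown. Sequence just after this Spp1 start was not found in GENCODE transcripts of Spp1, whereas that after the other starts shown was found in theirs. Over the full windows and both strands, the C/EBP motif TTGCNNAA was in 4 of 12 windows of these genes (Lcn2, Cp, Spp1 and Havcr1) and in 10.8% of 32851 RefSeq windows of the same length. Of these matches, those in Lcn2, Cp and Spp1 lie in annotated exon sequence, and that in Havcr1 does not. ACGTG was in 5 of 12 windows, in Cd44, Plin2, Havcr1 and Dcdc2a, against 19.6% of all windows. The AP-1 motif TGANTCA was in 2 of 12, in Cp and Havcr1, against 7.81%, and the STAT motif TTCNNNGAA in 1 of 12, against 8.30%. The NF-kB motif was in 0 of 12, against 4.51%, and the PPAR response element in 0 of 12, against 0.381%. No match of one motif overlapped a match of another, and Plin2 held ACGTG on both strands within CACGTG. Several windows belong to 1 gene, and a match states only that the letters are present.

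The 5 secreted products covered the whole range of ratios. Lcn2 (NCBI gene 16819, chr2:32384637-32387739) encodes a carrier of iron-binding siderophores that injured distal and collecting tubules release into urine. It had 12 control and 1354 CKO reads, or 0.399 CPM (0.206 to 0.696) and 31.8 CPM (30.1 to 33.5). The ratio was 79.8 (45.5 to 155), and the width of that interval comes from the 12 control reads. Its log2 ratio ranked 3 from the highest among 15129 expressed genes.

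Spp1 (NCBI gene 20750, chr5:104435111-104441053) encodes osteopontin, an acidic phosphoprotein that binds integrins and Cd44. It had 10300 control and 178677 CKO reads, or 342 CPM (336 to 349) and 4196 CPM (4177 to 4216), a ratio of 12.3 (12.0 to 12.5). In per-length units (deposited TPM, which scale read counts by transcript length to a fixed total) it went from 404 to 6645, and from place 255 to place 14 among all genes of the table. Spp1 was the most abundant of the 10 genes in both libraries.

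Clu (NCBI gene 12759, chr14:65968483-65981548) encodes clusterin, an extracellular chaperone that binds misfolded proteins. Its 2178 control and 26193 CKO reads gave 72.3 CPM (69.3 to 75.4) and 615 CPM (608 to 623), a ratio of 8.50 (8.14 to 8.89). Cp (NCBI gene 12870, chr3:19956933-20009750) encodes ceruloplasmin, a copper-carrying ferroxidase and acute-phase protein. It had 1331 control and 10278 CKO reads, or 44.2 CPM (41.9 to 46.6) and 241 CPM (237 to 246), a ratio of 5.46 (5.16 to 5.79). Cp overlaps Hps3 on the opposite strand, and Hps3, with 1473 and 1780 reads, had a log2 ratio of -0.22.

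Cst3 (NCBI gene 13010, chr2:148871722-148875512) encodes cystatin C, an inhibitor of cysteine proteases. It had 4896 control and 10035 CKO reads, or 163 CPM (158 to 167) and 236 CPM (231 to 240), a ratio of 1.45 (1.40 to 1.5). Cst3 was the 1 gene of the 10 that did not reach 2-fold. Its rank was 3175 from the highest, so that 79.0% of expressed genes lay below it, where for the other 9 genes that share ran from 94.3% for Plin2 to 99.98% for Lcn2.

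Among the surface proteins, ratios lay between 11.6 and 18.02. Havcr1 (NCBI gene 171283, chr11:46739822-46779578) encodes kidney injury molecule 1, a phosphatidylserine receptor with which proximal tubule cells take up dead neighbours. It had 815 control and 13380 CKO reads, or 27.1 CPM (25.2 to 29.0) and 314 CPM (309 to 320), a ratio of 11.6 (10.8 to 12.5). Vcam1 (NCBI gene 22329, chr3:116110020-116129688) encodes an adhesion molecule that binds leukocyte integrins. It had 244 control and 4198 CKO reads, or 8.10 CPM (7.12 to 9.19) and 98.6 CPM (95.6 to 102), a ratio of 12.2 (10.7 to 13.9). A GENCODE antisense gene model overlaps Vcam1, and whether the counting used strand is not given in the sources used here.

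Cd44 (NCBI gene 12505, chr2:102811141-102901669) encodes the main hyaluronan receptor, which leukocytes, stromal cells and dedifferentiated tubule cells carry. It had 48 control and 1223 CKO reads, or 1.59 CPM (1.18 to 2.11) and 28.7 CPM (27.1 to 30.4), a ratio of 18.02 (13.5 to 24.6). The table lists 11 transcripts for Cd44, and gene counts do not separate its splice forms.

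The 2 intracellular products had smaller ratios. Dcdc2a (NCBI gene 195208, chr13:25055273-25210706) encodes a doublecortin-domain protein that binds microtubules and localizes to the primary cilium. It had 679 control and 3314 CKO reads, or 22.6 CPM (20.9 to 24.3) and 77.8 CPM (75.2 to 80.5), a ratio of 3.45 (3.18 to 3.75). Plin2 (NCBI gene 11520, chr4:86626910-86670217) encodes the perilipin that coats lipid droplets in most cells. It had 436 control and 1658 CKO reads, or 14.5 CPM (13.2 to 15.9) and 38.9 CPM (37.1 to 40.9), a ratio of 2.69 (2.42 to 3.0).

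**Figure D2:**
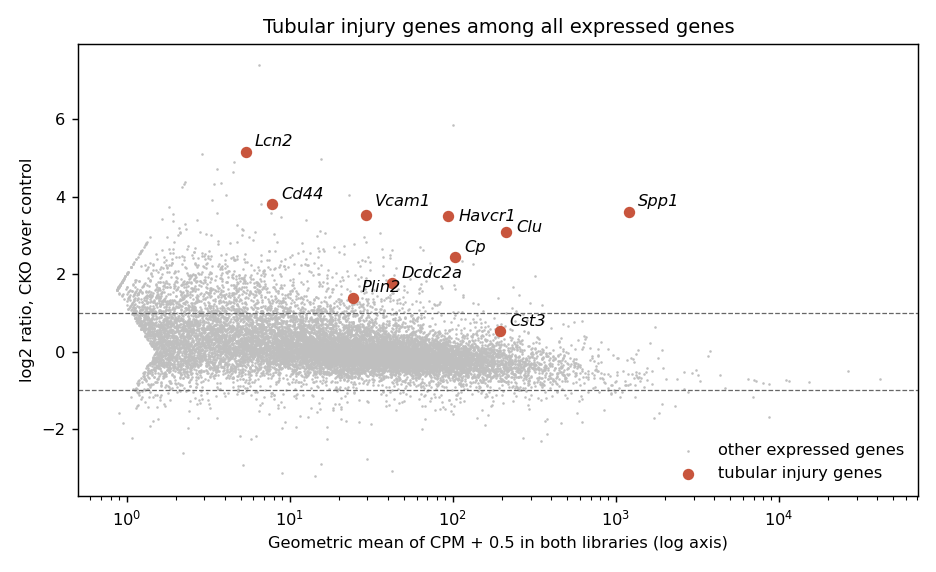
log2 ratio of CKO over control for each expressed gene (grey) against its geometric mean level in both libraries on a log axis, with the 10 tubular injury genes in red and dashed lines at 2-fold. Of the 10 genes, 9 lie above the upper line, no other gene of the level of Spp1 comes near its ratio, and Cst3 lies inside the lines.

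Ordered by ratio, the counting intervals of neighbours overlapped only between Spp1 and Vcam1 and between Vcam1 and Havcr1. These 3 genes, at 12.3, 12.2 and 11.6, therefore had ratios within counting error of their neighbour in that order. Lcn2, at the top, was 4.43 times the ratio of Cd44, the next gene. The lowest control levels per length, those of Cd44 and Lcn2, went with the highest ratios. The order did not follow the starting level throughout. The highest control level belonged to Spp1, at a ratio of 12.3, and the next to Cst3, the gene with the smallest ratio.

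Per length, the order of levels in the control library was Spp1 (404 TPM), Cst3 (344), Clu (67.2), Havcr1 (22.2), Cp (16.1), Plin2 (12.9), Dcdc2a (5.54), Vcam1 (4.0), Lcn2 (0.752) and Cd44 (0.468). The intervals of Lcn2 and Cd44 overlapped, and those of the other neighbours did not. In the CKO library the TPM order was Spp1 (6645), Clu (766), Cst3 (667), Havcr1 (352), Cp (125), Lcn2 (84.0), Vcam1 (65.4), Plin2 (46.5), Dcdc2a (27.3) and Cd44 (14.3), with no overlap between neighbours. Clu thus stood above Cst3 in the CKO library and below it in the control, and Lcn2 stood above Vcam1, Plin2 and Dcdc2a in the CKO library only.

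Summed over the 10 genes, the control level was 877 TPM and the CKO level 8793 TPM. Spp1 made up 46.1% of the control sum and 75.6% of the CKO sum, while the share of Cst3 went from 39.2% to 7.59%. Without Spp1, the other 9 genes summed to 473 and 2147 TPM. Of all counted reads, the 10 genes took 0.0623% in the control library and 0.656% in the CKO library.

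Nearest expressed genes on either side were looked up after the ratios of the 10 genes had been seen. Of these 20 neighbours, 3 were higher by 2-fold or more in the CKO library and 1 lower by 2-fold or more, and their median log2 ratio was -0.08. These counts are near the shares among all expressed genes, 10.3% higher and 1.66% lower. The 3 were Sparcl1 before Spp1 (1.22), Haus6 before Plin2 (1.18) and Sgcd after Havcr1 (1.09), and the lower one was Gm31651 after Vcam1 (-1.53). On the far side of Spp1, the polycystin gene Pkd2 lies 12.9 kb away and had a log2 ratio of -0.05, and Ptges2, 8.15 kb from Lcn2, had -0.41.

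Close relatives of the 10 genes were compared by list, chosen with results of these data known. Here and in all lists that follow, counts past 2-fold are to be read beside the 10.3% higher and 1.66% lower among all expressed genes. Several counts in short lists lie near those shares. Expressed genes below 1 CPM in the control passed the expression limit only through the CKO library and so tend to be called higher. Among the TIM family relatives of Havcr1, the ferritin receptor gene Timd2 had 2136 and 2587 reads and a log2 ratio of -0.22, and Havcr2, an immune checkpoint receptor gene, had 4 and 94 reads and 2.10. Timd4 had 0 reads in both libraries. Of the other perilipin genes, Plin3 (0.30), Plin4 (0.22) and Plin5 (-0.34) stayed within 2-fold under every scaling, and Plin1 had 0 reads in both libraries. The doublecortin family genes Dclk2 and Dclk3 had log2 ratios of -0.12 and -0.11, whereas Dclk1 had 2 and 91 reads, a ratio of 32.2 (8.65 to 270).

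Cstb, which encodes the intracellular cystatin B, was the 1 expressed relative of Cst3, at 31.6 and 57.0 CPM and a log2 ratio of 0.84. Heph, a membrane ferroxidase gene related to Cp, was 2.10-fold higher in the CKO library, at 9.60 and 20.2 CPM. Among adhesion molecule genes, Icam1 was 3.05-fold higher, Alcam 1.80-fold and Icam2 1.01-fold. The bone sialoprotein relatives of Spp1 were not expressed, with 0 reads in both libraries for Ibsp, Dmp1 and Mepe and 0 and 8 for Dspp. Of the lipocalin genes, Ptgds (3.96-fold higher) and Apom (log2 ratio -0.53) were expressed.

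Lists of receptors and partners of the secreted products had median log2 ratios between -0.34 and 0.60. Both expressed lipocalin-2 receptor genes had log2 ratios below 0, Lrp2 (megalin) at -0.56 and Slc22a17 at -0.12, and their median of -0.34 turned to 0.08 with TPM values. Of 8 integrin subunit genes that bind osteopontin or Vcam1, 2 were higher by 2-fold or more. These were Itga4 (3.99-fold, 77 and 435 reads) and Itgb7 (4.07-fold, 29 and 167 reads), subunits of the leukocyte receptors for Vcam1. The other 6, with Itgav at 0.46 and Itgb1 at 0.52, lay between 0.41 and 0.69.

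Clusterin receptor genes had 2 of 4 members higher by 2-fold or more, and 0 with a pseudocount of 2 CPM. Trem2, a macrophage lipid receptor gene, had 0 and 66 reads, which is at least 15.6-fold higher against a floor of 3 reads in the control library, and Lrp8 was 2.16-fold higher. Lrp2 and Vldlr (-0.16) were the other members, and the list median of 0.44 became -0.16 in the authors' normalized table, which leaves out genes at 0. Of 7 cysteine protease genes that cystatins inhibit, 3 were higher by 2-fold or more: Ctss (9.07-fold), Ctsc (4.4-fold) and Ctsk (2.7-fold). Ctss encodes the cathepsin of antigen-presenting cells, and the abundant tubular Ctsb and Lgmn had 0.11 and -0.12.

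Iron genes around ceruloplasmin had 2 of 8 expressed members higher and 1 lower by 2-fold or more. With a pseudocount of 2 CPM 1 was higher, and with total counts 0 were lower. The transferrin gene was 2.33-fold higher and Heph 2.10-fold higher, and Tfrc, the transferrin receptor gene, was 2.24-fold lower, at 99.1 and 44.3 CPM. The iron exporter gene Slc40a1 had a log2 ratio of 0.33. Around Cd44, 2 of 8 expressed genes were higher by 2-fold or more, the hyaluronan-degrading Cemip (5 and 112 reads) and the hyaluronan-binding mitosis gene Hmmr (26 and 151 reads). Both were below 1 CPM in the control and passed the expression limit only through the CKO library, so this count leans toward higher. The list median was -0.02, and it was positive under 4 of 9 other scalings, units or pseudocounts. The hyaluronan synthase genes Has1 and Has2 were listed at 0 in the control, with 35 and 13 CKO reads.

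Phosphatidylserine receptors, bridges and sheddases, which act beside or on Havcr1, had 2 of 10 expressed members higher by 2-fold or more, Axl (3.26-fold) and the bridging protein S gene Pros1 (2.17-fold). Adam10 and Adam17, sheddase genes, had log2 ratios of 0.15 and 0.10. None (0) of 12 expressed lipid droplet turnover genes was past 2-fold in either direction, and 1 was lower by 2-fold or more with upper quartile scaling. Their median log2 ratio was -0.27, the fatty acid receptor gene Cd36 (-0.97) and Cideb (-0.88) were the lowest, and the median was positive under 3 of 9 other scalings, units or pseudocounts. None (0) of 10 primary cilium genes was past 2-fold, with Pkhd1 (0.59) and Arl13b (0.56) the highest.

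**Figure D3:**
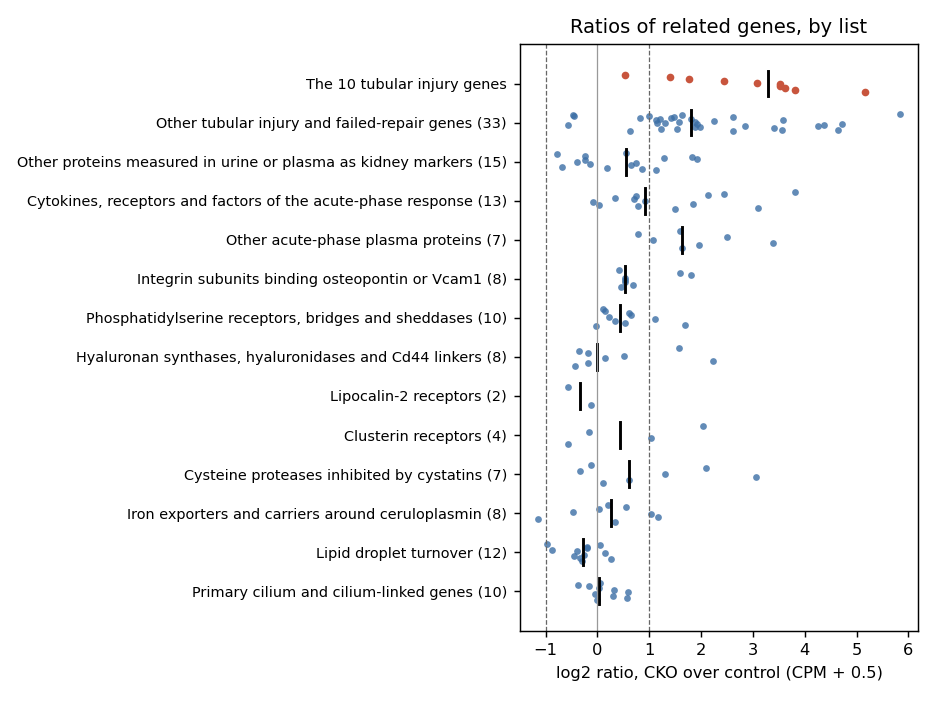
log2 ratio of CKO over control for expressed genes of each list (points), with the list median as a black bar, the number of expressed genes in brackets and dashed lines at 2-fold. The 10 tubular injury genes (red) have a median of 3.30, other injury genes 1.80, lipid droplet genes -0.27 and cilium genes 0.03.

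A broader list of 33 other tubular injury and failed-repair genes had 27 members higher by 2-fold or more and 0 lower by 2-fold or more, with a median log2 ratio of 1.80. The largest ratios were those of the complement gene C3 (5.84), the chemokine genes Cxcl1 (4.72) and Ccl2 (4.37) and the keratin gene Krt19 (4.64). The 3 members below 0, named after their values were seen, were Hmox1 (-0.56) and the integrin genes Itgb8 (-0.48) and Itgb6 (-0.45). Many of its genes were already known to be higher here, so its count is not independent of the 10. Krt19, Krt20, Sox9, Timp1, Ccl2, Cxcl1, Kcnip4 and Atf3 were below 1 CPM in the control. They passed the expression limit only through the CKO library, so the count of 27 leans toward higher.

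Other proteins measured in urine or plasma as kidney markers were less uniform, with 4 of 15 expressed genes higher by 2-fold or more, 0 lower by 2-fold or more and a median of 0.55. The galectin-3 gene Lgals3 was 3.92-fold higher, the prostaglandin D synthase gene Ptgds 3.96-fold, Dkk3, a tubular stress glycoprotein gene, 2.48-fold and B2m, the light chain of class I molecules, 2.2-fold. The epidermal growth factor gene Egf, whose urinary level falls in tubular disease, had 1041 and 644 CPM, a log2 ratio of -0.69. The lowest of the list was Ntn1, at 196 and 113 CPM and a log2 ratio of -0.79, whereas Umod had 0.65. Egf, Ntn1 and Umod were named after their values were seen.

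Acute-phase regulators and proteins, to which Lcn2 and Cp belong, were described in the same way. Of 13 expressed cytokine, receptor and factor genes, 6 were higher by 2-fold or more, led by the feedback inhibitor Socs3 (18.9-fold), the cytokine Lif (16.7-fold), Nfkbiz (5.80-fold), a nuclear NF-kB cofactor of Lcn2 transcription, and Cebpd (4.91-fold). Stat3 itself was 1.27-fold higher and Il6 had 0 and 19 reads. Lif and the cytokine gene Il1b were below 1 CPM in the control and passed the expression limit only through the CKO library. The count of 6 regulators therefore leans toward higher. Of 7 expressed acute-phase plasma proteins, 6 were higher by 2-fold or more. Hp, Saa1, Serpina3n and A2m were below 1 CPM in the control and passed the expression limit only through the CKO library, so this count leans toward higher. Serpina3n had 3 and 244 reads, a ratio of 57.5 (19.4 to 281), and the fibrinogen gene Fgg was 7.74-fold higher. Against the floor of 3 reads, Saa1 was at least 14.4-fold and Hp at least 10.6-fold higher.

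Markers of cells that could contribute these transcripts moved unequally. Macrophage markers, beside Spp1, Cd44 and Clu, had 13 of 14 genes higher by 2-fold or more, and they summed to 83.0 CPM (control) and 402 CPM (CKO). Ms4a7 was the 1 macrophage marker at 0 in the control, Lyz2 was 18.1-fold higher, Ccr2 13.4-fold, and Csf1r 1.83-fold. Csf1r had the most reads of the list, which here and in the lists that follow means reads summed over both libraries, not a level per length or in each library. The part of macrophages in the ratios of the 10 genes was not tested.

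Neutrophils store lipocalin-2 in their granules. Of 8 neutrophil markers, S100a8, Ly6g, Mpo and Camp had 0 reads in both libraries, Retnlg had 0 and 6 and S100a9 5 and 18. The 1 expressed marker was Csf3r, with 22 and 182 reads, and the list summed to 1.06 and 5.0 CPM. The part of neutrophils in the Lcn2 ratio was not tested. T and NK cell markers summed to 3.62 and 15.2 CPM, with 5 of 6 expressed genes higher by 2-fold or more. All of these expressed genes but Il2rb were below 1 CPM in the control and passed the expression limit only through the CKO library. Klrk1 (9.09-fold) and Lck (5.37-fold) were the largest by log2 ratio of CPM + 0.5, Cd3g (5 and 50 reads) had a plain ratio of 7.07, and Il2rb (2.64-fold) had the most reads. B and plasma cell markers summed to 10.7 and 23.2 CPM, with Ighm 3.58-fold and Ebf1 1.80-fold higher.

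Endothelium carries Vcam1 when inflamed. None (0) of 10 endothelial markers was past 2-fold, their summed level was 620 and 603 CPM, and Vcam1 was 12.2-fold higher beside them. The lowest and highest were Kdr (-0.45) and Egfl7 (0.30), and Plvap, with the most reads, had 0.08. Parietal epithelium, another site of Vcam1, had 2 of 5 markers higher by 2-fold or more, Akap12 (3.13-fold) and Cldn1 (2.56-fold). Its markers summed to 168 and 289 CPM, with Pax8, which had the most reads, at 0.06. Akap12 is also in the list of other tubular injury genes, so the counts of these lists are not separate observations. Fibroblast, pericyte and smooth muscle markers had 8 of 12 genes higher by 2-fold or more and summed to 367 and 953 CPM, with Col3a1 (5.08-fold, the most reads) and Col1a1 (4.73-fold) the largest by log2 ratio. The part of these cells in the ratios was not tested.

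**Figure D4:**
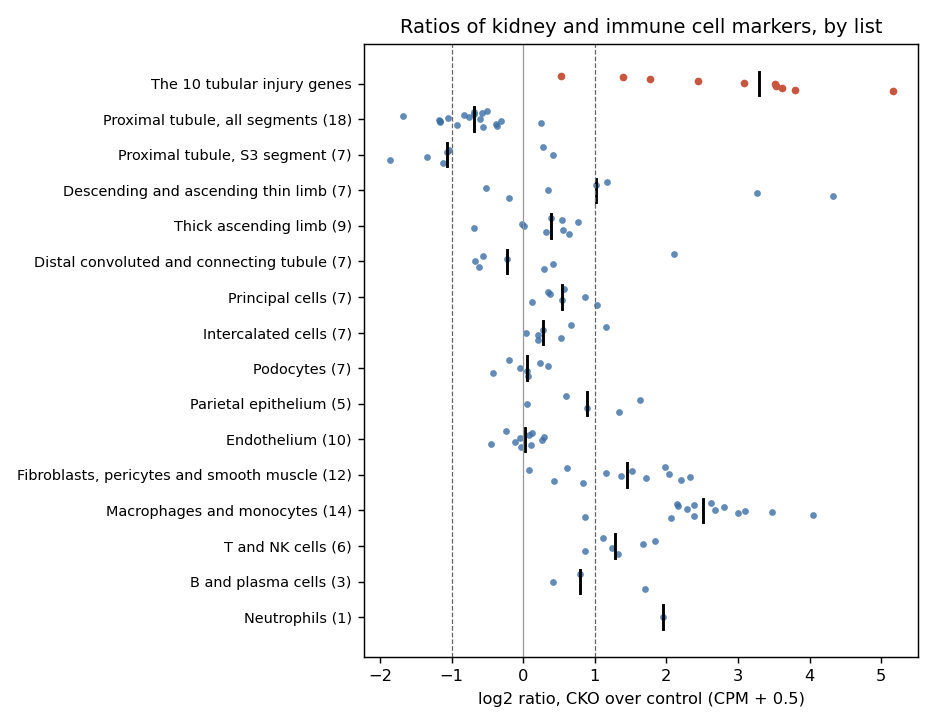
log2 ratio of CKO over control for expressed markers of each kidney or immune cell type (points), with the median as a black bar, the number of expressed markers in brackets and dashed lines at 2-fold. Macrophage markers have a median of 2.51, endothelial markers 0.03 and proximal tubule markers -0.68, against 3.30 for the 10 tubular injury genes (red).

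Proximal tubule markers had a lower sum in the CKO library, with most of them within 2-fold. Of 18 markers, 5 were lower by 2-fold or more, 13 within 2-fold and 0 higher by 2-fold or more, and they summed to 59119 and 29826 CPM. Kap, with the most reads, was 3.20-fold lower, at 15529 and 4858 CPM, and is also listed below among genes that male kidneys express more. Miox was 2.27-fold lower, and Slc5a12 was the 1 marker with a log2 ratio above 0 (0.26, TMM scaling). With total counts or TPM values 1 of the 18 was lower by 2-fold or more. Of 7 markers of the S3 segment, 5 were lower by 2-fold or more, with Slc22a7 3.72-fold and Acy3 2.54-fold lower, and Atp11a, with the most reads, 2.04-fold lower, whereas Slc5a1 (0.41) and Slc22a13 (0.28) had log2 ratios above 0. The list summed to 8203 and 3757 CPM, and with total counts 2 and with TPM values 1 of the 7 were lower by 2-fold or more.

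Counts for distal segments, which also express Spp1, Clu and Lcn2, differed from list to list. Thick ascending limb markers summed to 3246 and 3808 CPM with 0 of 9 past 2-fold, Cldn19 (0.77) and Egf (-0.69) being the largest. Principal cell markers summed to 308 and 446 CPM, with 1 of 7 higher by 2-fold or more, Aqp2 (2.05-fold), followed by Scnn1b (1.83-fold), and Hsd11b2, with the most reads, at 0.35. Intercalated cell markers summed to 259 and 347 CPM, with 1 of 7 higher by 2-fold or more, Aqp6 (2.28-fold), and Slc4a9, with the most reads, was at 0.67. Distal convoluted and connecting tubule markers summed to 1576 and 1240 CPM, with 1 of 7, Trpv5 (4.51-fold), past 2-fold, Calb1 at -0.67 and Klk1, with the most reads, at -0.57. Thin limb markers had 4 of 7 higher by 2-fold or more, led by Slc14a2 (0 and 405 reads) and Bst1 (13.7-fold), with Aqp1, which had the most reads, at -0.20, and summed to 820 and 763 CPM. Podocyte markers summed to 426 and 428 CPM, with 0 of 7 past 2-fold, Synpo at 0.35 and Podxl, with the most reads, at 0.06.

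A few further lists describe the samples rather than a cell type. Genes that male kidneys express more had 9 of 11 members lower by 2-fold or more and summed to 24605 and 8063 CPM, with Acsm3 (-2.30), Slco1a1 (-2.13) and Kap, with the most reads (-1.68). Kap is also in the proximal tubule list and Slc7a13 in the S3 list, so these lists are not separate observations. Genes that female kidneys express more had 4 of 7 higher by 2-fold or more and summed to 224 and 313 CPM, with Prlr at 2.64, Slc7a12 at 2.30 and Cyp2a4, with the most reads, at -0.59. Immediate early genes, which also respond to handling of the tissue, had 12 of 16 expressed members higher by 2-fold or more and summed to 250 and 627 CPM, with Egr2 (3.17), Atf3 (2.61) and Klf6, with the most reads (1.61). Of these immediate early genes, Fosb, Egr2 and Atf3 were below 1 CPM in the control. They passed the expression limit only through the CKO library, so this count leans toward higher. Atf3 and Myc are also among the other tubular injury genes. The part of any of these sample lists in the ratios of the 10 genes was not tested. With 1 library per group the animals and the genotype cannot be told apart.

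**Figure D5:**
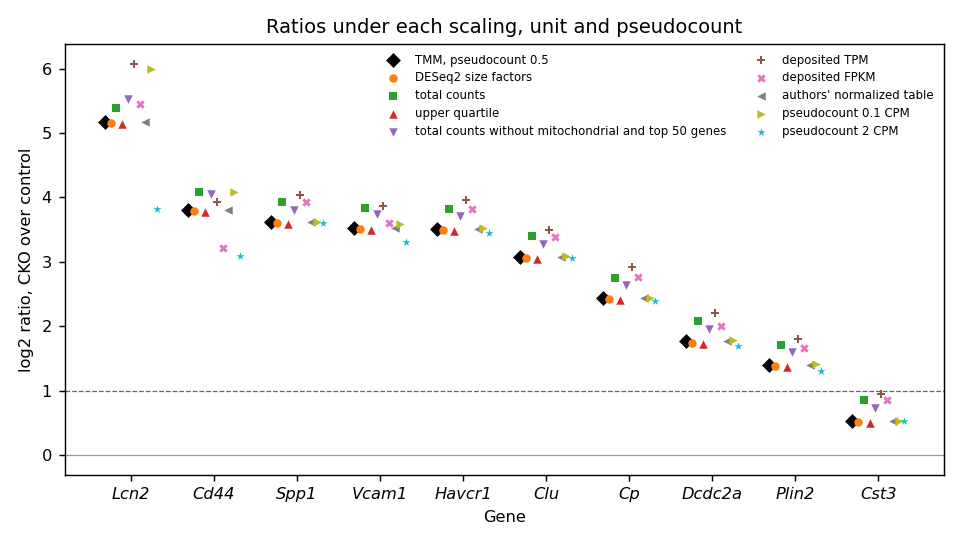
log2 ratio of CKO over control for each of the 10 genes under TMM scaling with a pseudocount of 0.5 (black diamonds) and 9 other scalings, units or pseudocounts (coloured symbols), with a dashed line at 2-fold. Under each setting 9 genes stay above the line and Cst3 stays below it, and Lcn2 varies most, from 3.82 to 6.08.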

How the data were processed

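RNA from whole mouse kidneys was sequenced as 1 control and 1 CKO library, prepared with a stranded mRNA kit per the labels' protocols. Tools named in the submitters' processing notes, without roles, are FastQC, HTSeq, edgeR, DESeq2, STAR 2.7.3a and Cufflinks 2.2.1, and the build is mm10. The deposited read counts are whole numbers that were not normalized. The deposited FPKM and TPM values, named in the file headers, are scaled per length and depth. The authors' normalized signal table, for 19550 genes with reads in both libraries, equals the count divided by 1 constant per library (30.1 and 42.6).

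Counts were scaled by TMM (edgeR 4.0.16, R 4.3.3), with effective sizes of 30.1 and 42.6 (in Mreads). The constants of the authors' normalized table are nearly the same, so for the 10 genes that table repeats this scaling. DESeq2 1.42.0 gave alternative size factors. Other steps used Python 3.11.15, numpy 2.4.6, pandas 2.3.3, scipy 1.17.1 and matplotlib 3.10.9. Ratios are CKO over control, and a gene at 0 in the control was set against a floor of 3 reads (0.0996 CPM). Named genes are the 10 members, Inmt and, per list, the 2 to 4 largest absolute log2 ratios (for cell lists the 2 largest and the one with the most reads over both libraries); others were named after their values were seen. A few genes meeting it are left out and not reported here. The members and lists were chosen with earlier results of these data known. Simulated counts for this comparison over 45777 genes held Poisson counting error only, with no spread between animals or libraries. In them, 100 of 100 genes 4-fold higher and 100 of 100 genes 4-fold lower passed 2-fold, as did 0 of 14659 unchanged genes. They cannot show how often real genes pass 2-fold without an effect of genotype. Coordinates are RefSeq's on GRCm38, matched by NCBI gene ID for 45679 genes.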

Additional observations from a re-analysis of the deposited data

How the results depend on the processing

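The log2 ratios of the 10 genes kept their sign under the 9 other scalings, units and pseudocounts, and 9 genes stayed at least 2-fold higher. With a 4-fold limit 7 did, and 0 were at least 2-fold lower in any setting. Of the 9 alternatives, the authors' normalized table nearly repeats the TMM scaling for the 10 genes and is no separate check. Across settings Cst3 ranged from 0.50 to 0.96, Plin2 from 1.31 to 1.81, Cd44 from 3.10 to 4.09 and Lcn2 from 3.82 to 6.08, the extremes of Lcn2 being a pseudocount of 2 CPM and TPM values. Counts over all expressed genes moved more. At least 2-fold higher were 1552 genes, or 2391 with total counts, 2613 with TPM, 825 with a pseudocount of 2 CPM and 573 with a minimum of 10 CPM. A limit of 1.5-fold gave 2920 and a limit of 4-fold 291. At least 2-fold lower were 251 genes, or 102 with total counts, 158 with total counts that leave out mitochondrial and the 50 most abundant genes, 139 with TPM, 102 with FPKM and 167 with a pseudocount of 2 CPM, and the limits gave 1037 and 16. Total counts moved the median of all expressed genes to 0.32 and TPM values to 0.40, so ratios are best read against that shift. Among lists, other urine and plasma markers at least 2-fold higher went from 4 to 8 at most, acute-phase regulators from 6 to 10, T and NK markers from 5 to between 0 and 9, Cd44 partners from 2 to between 0 and 3, and proximal tubule markers lower by 2-fold or more from 5 of 18 to 1, and those of S3 from 5 of 7 to 1. The calls at 2-fold or more higher among relatives of Havcr1, Cp and Dcdc2a, clusterin receptors, principal cell markers and intercalated cell markers fell to 0 in at least 1 setting, and the 1 lower iron gene was not lower by 2-fold with total counts. No paired analysis was possible because each group has 1 library. The cause of these shifts was not tested.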

Other observations

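Cd44 was the gene of the 10 whose ratio depended most on the unit. Its plain ratio was 18.02 in CPM and 30.5 in deposited TPM, and for Spp1 the same values were 12.3 and 16.4. The table lists 11 Cd44 transcripts, and TPM uses transcript lengths that the count table does not show.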
